A study of Mus musculus with 8 samples.

Results

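The AMPA receptor auxiliary subunits examined here were 10 genes chosen by name from the 25834 genes counted in mouse hippocampus. They were the transmembrane AMPA receptor regulatory proteins (TARPs) Cacng2, Cacng3, Cacng4, Cacng5, Cacng7 and Cacng8, the cornichon homologs Cnih2 and Cnih3, the cysteine-knot protein gene Shisa9, and the claudin-like gene Gsg1l. RNA-seq had been performed on hippocampi from 4 control and 4 SAP97-cKO male mice, with 1 library per mouse. SAP97-cKO mice carried Nestin-cre+/- and SAP97fl/fl, so that the Nestin promoter drove Cre in neural progenitors and the deletion passed to their neuronal and glial descendants. Controls were littermates that, according to the methods, were Nes-cre+/-, SAP97fl/fl or wild-type. The sources used here give neither the genotype of each control library nor the age of the mice used for sequencing. The comparison addressed whether loss of SAP97, a scaffold of the Dlg-MAGUK family, altered transcript levels in the hippocampus.

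AMPA receptors are tetramers of the pore-forming subunits GluA1 to GluA4 and carry most fast excitatory transmission in the hippocampus. Auxiliary subunits assemble with the pore, assist its export from the endoplasmic reticulum, slow or hasten its desensitization, and tether it at the synapse. The type I TARPs end in a short PDZ ligand that is bound by PDZ domains of MAGUK scaffolds such as PSD-95, and SAP97 itself binds the tail of GluA1. TARP γ-8, encoded by Cacng8, is the most hippocampus-enriched TARP, and CNIH-2 is a known partner of receptors that contain it. In libraries of whole hippocampus such as these, fewer cells of a type and less RNA per cell cannot be told apart.

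The ends of the coding sequences are shown because the PDZ ligand is the feature that divides these genes by their relation to MAGUKs. Each line gives the last 30 coding bases before the stop codon, 5′ to 3′ on the coding strand, with the last 4 codons in capitals, from the GENCODE M21 annotation of GRCm38.
Cacng2 (chr15:77995152-77995181, minus strand): aacacagccaaccgccggACCACGCCCGTA
Cacng3 (chr7:122768814-122768843, plus strand): aatccggccaacagacgtACCACGCCTGTC
Cacng4 (chr11:107734783-107734812, minus strand): agcatgctgaaccggcggACGACTCCCGTG
Cacng8 (chr7:3415573-3415602, plus strand): aacacgctcaacaggaaaACCACGCCCGTG
Cacng5 (chr11:107877355-107877384, minus strand): gactatgaccagatgtcaTCATCTCCCTGC
Cacng7 (chr7:3366916-3366945, plus strand): gaccatctccacatctccACTTCGCCGTGC
Shisa9 (chr16:12267771-12267800, plus strand): atcactaacagcaaaacaGAAGTGACTGTC
Gsg1l (chr7:125881144-125881173, minus strand): cgtcagtgctgggtcctgGGGCACTGGGTG

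The 4 type I TARPs shared between 8 and 11 of their last 12 bases with one another. Cacng2 and Cacng8 shared 11 of them and Cacng2 and Cacng3 shared 10. The type II TARPs Cacng5 and Cacng7 shared 8 of 12 bases with each other, and between 5 and 7 with any type I gene. Shisa9, whose protein also has a PDZ ligand, shared 6 bases with Cacng3, 4 with Cacng2 and 3 with Cacng4. It also shared 6 with each of the cornichon genes Cnih2 and Cnih3. Gsg1l, which belongs to the claudin superfamily like the TARPs, shared 2 with Cacng2 and 4 with Cacng4. The ends of the cornichon genes Cnih2 and Cnih3 span an intron and are not shown. These 2 genes shared 10 of 12 bases with each other, so such sharing was not limited to the type I TARPs. Cacng4 and Cacng5 lie 80047 bp apart on chromosome 11, and Cacng7 and Cacng8 lie 22461 bp apart on chromosome 7, so both type II genes have a type I gene as neighbor.

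The libraries held 37388177 to 37426572 counts, and all 10 auxiliary subunit genes were among the 16251 genes that passed the filter on low counts. Dlg1, the gene for SAP97, had normalized counts of 4128, 4550, 3983 and 4691 in control libraries 1 to 4, and 2353, 3065, 2144 and 2009 in SAP97-cKO libraries 1 to 4. The groups did not overlap. These counts cover the whole gene, so reads from exons outside the deleted part and from cells without Cre are included. The paper reports a far stronger loss, to a small fraction of control, for reads of a single exon of the gene. It also describes a western blot check of each animal before sequencing. The whole-gene counts are therefore no measure of how complete the deletion was, and the share of each source of remaining reads was not tested. The SAP97-cKO mean was 55.2% of control, and the log2 fold change was -0.86 (SE 0.124, adjusted p = 0.143 by the quasi-likelihood test of edgeR, exact two-sided permutation p = 0.0286, the smallest that 70 assignments allow). Normalized counts are deposited counts scaled by TMM factors, adjusted p values are Benjamini-Hochberg values over all genes tested, and a gene was called at an adjusted p under 0.25, the threshold of the study. As a check of the tissue, the CA1 and dentate granule marker lists, given as the mean log2 CPM (library-scaled counts) of their genes, were at 5.93 to 6.45 and 5.23 to 6.36 over the 8 libraries. The call of Dlg1 was lost without control replicate 2 (adjusted p = 0.424), SAP97-cKO replicate 3 (0.524) or SAP97-cKO replicate 4 (0.346), while its log2 fold change stayed between -1.0 and -0.78 whichever library was left out.

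Cnih2 was by far the most abundant auxiliary subunit transcript. Its level, as normalized counts per kb of annotated exon, was 10531 ± 1479 (SD over 8 libraries), higher than 99.6% of the genes tested and above that of Gria1 (6549 ± 1042), the gene for GluA1. Before division by exon length (1.369 kb for Cnih2 and 6.043 kb for Gria1), Gria1 had more normalized counts, with control means of 37255 against 13891. Cnih3, the close relative of Cnih2, followed at 1175 ± 152 per kb. Cnih2 was above Cnih3 in 8 of 8 libraries, with a ratio of the mean levels of 8.96. Cornichons were first described as cargo exporters of the early secretory pathway, and in neurons both slow AMPA receptor gating.

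Of the TARPs, Cacng3, Cacng7, Cacng8 and Cacng2 came next, and Cacng4 and Cacng5 were at the lower end. Cacng3 stood at 728 ± 173, Cacng7 at 715 ± 46.6 and Cacng8 at 675 ± 149 normalized counts per kb. These neighbors did not differ beyond their spread, since Cacng3 was above Cacng7 in 4 of 8 libraries and Cacng7 above Cacng8 in 5 of 8. Cacng2, the gene for stargazin, stood at 512 ± 48.0 per kb and was below Cacng8 in 8 of 8 libraries. Shisa9, which encodes CKAMP44, followed at 421 ± 49.5 and was below Cacng2 in 7 of 8 libraries. Gsg1l (326 ± 146 per kb) and Cacng4 (287 ± 33.0 per kb) were not separated, with Gsg1l higher in 4 of 8 libraries. Cacng5 was the lowest at 168 ± 55.3 per kb and lay below Cacng4 in 8 of 8 libraries. The level of Cacng8 depends on a short gene model, in which annotated sequence ends 43 bp after the stop codon, against 547 to 3401 bp for the other 9 genes, so that reads beyond that end would not have been counted.

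The 2 remaining calcium channel γ genes were nearly silent. Cacng1, a skeletal muscle channel subunit, had 7 counts in all 8 libraries together, Cacng6 had 47, and neither was tested.

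**Figure D1:**
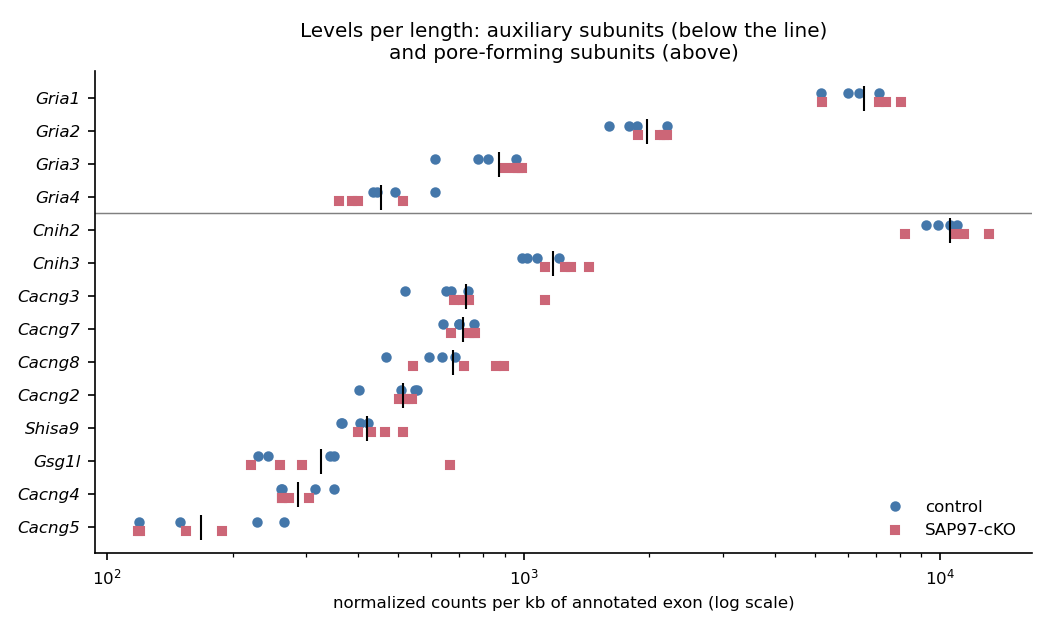
Normalized counts per kb of annotated exon (horizontal log axis) for the 10 auxiliary subunit genes below the line and the 4 pore-forming subunit genes above it. Circles are the 4 control libraries, squares the 4 SAP97-cKO libraries and vertical ticks the mean of all 8. Cnih2 (mean 10531) lies to the right of all other genes shown, Gria1 included, and Cacng5 (mean 168) is the lowest.

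Summed over the 10 genes, auxiliary subunit transcripts stood at 14830 ± 673 normalized counts per kb in control and 16244 ± 1610 in SAP97-cKO libraries (n = 4 each). The ratio of this sum to the sum of Gria1 to Gria4 was 1.61 ± 0.249 in control and 1.57 ± 0.0704 in SAP97-cKO. The size of this ratio depends on the exon lengths used, in which all annotated isoforms are merged. They were 15.55 kb for Gria2 and 9.859 kb for Gria3, against 1.369 kb for Cnih2. Cnih2 alone made up 68.3% ± 2.21 of the auxiliary sum in control and 66.8% ± 6.30 in SAP97-cKO. Among the type I TARPs per kb, the share of Cacng8 was 29% ± 2.57 in control and 32.0% ± 7.13 in SAP97-cKO, that of Cacng3 was 31.7% ± 4.45 and 34.2% ± 7.65, and that of Cacng2 was 24.6% ± 2.07 and 22.1% ± 1.33. The share of Cacng4 was 14.6% ± 2.11 (12.3% to 17.4%) in control and 11.7% ± 0.50 (11.1% to 12.3%) in SAP97-cKO. These shares were not tested. The summed level of the 4 type I TARPs was 1783 to 2234 per kb in control libraries and 2246 to 2469 in SAP97-cKO libraries. This sum was formed after the levels were known and was not tested. Relative to the pore-forming sum it was 0.220 ± 0.0203 in control and 0.231 ± 0.0384 in SAP97-cKO, ranges that overlapped.

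By edgeR and by limma-voom, no auxiliary subunit gene was called different between the genotypes, and DESeq2 called Cnih3. By edgeR, 0 of 10 had an adjusted p under 0.25, beside 48 of the 16251 genes tested (0.295%). For all 10 genes the ranges of the groups overlapped, whereas the groups did not overlap for 6.25% of all genes tested. At an unadjusted p under 0.05, 2 of the 10 (Cnih3 and Shisa9) were higher in SAP97-cKO, beside 4.73% of all genes tested, and 0 were lower, beside 7.01%. DESeq2 called Cnih3 higher (adjusted p = 0.218), where it called 2.74% of all genes tested higher. The log2 fold change was above 0 for 8 of the 10 genes, beside 47.2% of all genes tested, and its median was 0.16 over the 10 genes and -0.012 over all genes. The CA1 marker list also had a median above 0 (0.29 over 5 genes), and its mean log2 CPM was 5.93 to 6.16 in control and 6.10 to 6.45 in SAP97-cKO libraries. Of its genes, 0 were called by edgeR and 1, Wfs1, had an unadjusted p under 0.05 and was called higher by DESeq2. The part of CA1 content in the fold changes was not tested.

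**Figure D2:**
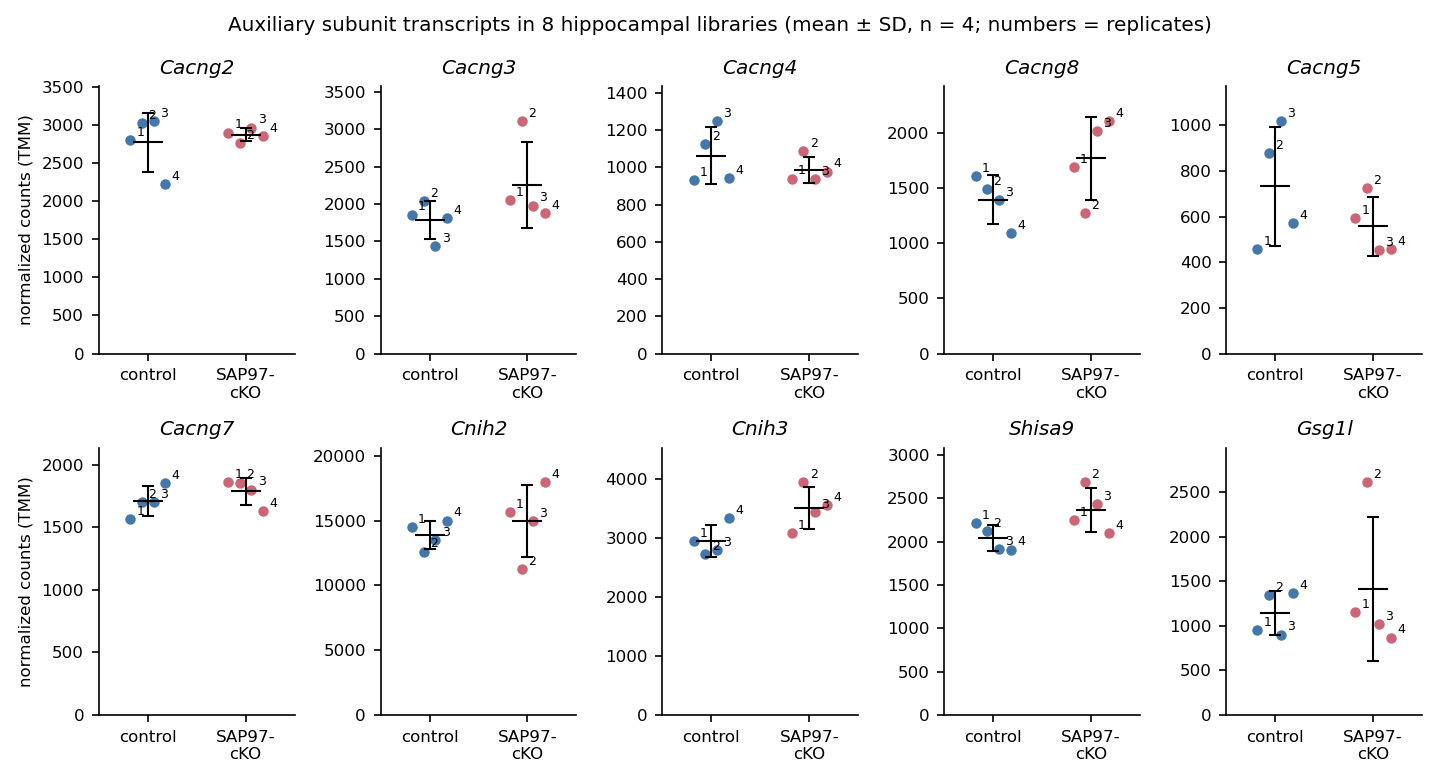
Normalized counts (vertical axis, from 0) of each auxiliary subunit gene in 4 control libraries (blue) and 4 SAP97-cKO libraries (red), with the replicate number beside each point and black bars for mean ± SD. The points of the genotypes overlap in every panel, and SAP97-cKO replicate 2 stands above the other libraries for Cacng3 (3114) and Gsg1l (2608).

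Among the type I TARPs, Cacng8 and Cacng3 had the largest positive fold changes. Cacng8, the γ-8 gene, had 1606, 1490, 1388 and 1093 normalized counts in control libraries 1 to 4, and 1687, 1273, 2011 and 2106 in SAP97-cKO libraries 1 to 4. SAP97-cKO libraries 1, 3 and 4 lay above every control library, and SAP97-cKO 2 lay within the control range. For Cacng8 the log2 fold change was 0.34 (SE 0.161, 95% interval -0.01 to 0.70, edgeR adjusted p = 0.435). It ranged from 0.24 without control replicate 4, the lowest library, to 0.47 without SAP97-cKO replicate 2, and the adjusted p was between 0.279 and 0.731 with any 1 library left out.

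Cacng3, which encodes γ-3, a TARP of forebrain neurons, had 1860, 2039, 1443 and 1808 normalized counts in control libraries and 2049, 3114, 1981 and 1884 in SAP97-cKO libraries. SAP97-cKO 2 stood far above the other 7, and control 3 was the lowest. The log2 fold change of Cacng3 was 0.34 (SE 0.163, 95% interval -0.02 to 0.70, adjusted p = 0.443). Without SAP97-cKO replicate 2 it was 0.14 (adjusted p = 0.602), and without both that library and control replicate 3 it was 0.07 (adjusted p = 0.786).

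Cacng2, mutated in the stargazer mouse, had 2796, 3027, 3052 and 2220 normalized counts in control libraries and 2899, 2758, 2964 and 2856 in SAP97-cKO libraries. Control 4 was the lowest, and the other 7 libraries lay close together. For Cacng2 the log2 fold change was 0.05 (SE 0.096, 95% interval -0.16 to 0.26, adjusted p = 0.854), and it was -0.04 without control replicate 4. An antisense gene, A730060N03Rik, shares 323 bp of exon with Cacng2, but it held only 88 to 125 counts per library. The sources used here do not say whether reads were counted by strand.

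Cacng4, the γ-4 gene, had 932.5, 1127, 1250 and 941.5 normalized counts in control libraries and 939.9, 1088, 938.1 and 977.8 in SAP97-cKO libraries. All SAP97-cKO libraries lay within the control range. In Cacng4 the log2 fold change was -0.11 (SE 0.105, 95% interval -0.34 to 0.12, adjusted p = 0.675), and it was -0.008 without control replicate 3, the highest library.

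The type II TARPs lack the type I PDZ ligand and differ from them in how they modulate gating. Cacng5, the γ-5 gene, had 458.2, 877.9, 1019 and 571.7 normalized counts in control libraries and 593.7, 724.7, 453.9 and 458.8 in SAP97-cKO libraries. Its highest values were in controls 2 and 3, and control 1 was as low as SAP97-cKO 3 and 4. Cacng5 had the most negative log2 fold change of the 10 genes, -0.39 (SE 0.247, 95% interval -0.94 to 0.16, adjusted p = 0.531). It was -0.56 without control replicate 1 (adjusted p = 0.260) and -0.18 without control replicate 3 (adjusted p = 0.809). Cacng7, the γ-7 gene, was the least variable member, with 1562, 1703, 1704 and 1855 normalized counts in control libraries and 1858, 1856, 1801 and 1630 in SAP97-cKO libraries. Its highest library was 1.19 times its lowest, and its log2 fold change was 0.07 (SE 0.073, 95% interval -0.10 to 0.23, adjusted p = 0.714).

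Cnih3 had the smallest p value of the 10 genes. Its normalized counts were 2953, 2727, 2793 and 3342 in control libraries and 3088, 3946, 3447 and 3564 in SAP97-cKO libraries. SAP97-cKO libraries 2, 3 and 4 lay above every control library, and SAP97-cKO 1 lay below control 4. Its log2 fold change was 0.25 (SE 0.090, 95% interval 0.05 to 0.45), and the adjusted p was 0.368 by edgeR, 0.384 by limma-voom and 0.218, under the threshold, by DESeq2. With 1 library left out its log2 fold change stayed between 0.19 and 0.32, and in edgeR it passed the threshold only without SAP97-cKO replicate 1 (adjusted p = 0.224), where 1.58% of all genes tested were called higher. Cnih2 had 14469, 12604, 13491 and 14998 normalized counts in control libraries and 15627, 11253, 14948 and 17944 in SAP97-cKO libraries. SAP97-cKO libraries held both the highest value, in replicate 4, and the lowest, in replicate 2. Across genotypes the log2 fold change of Cnih2 was 0.11 (SE 0.127, 95% interval -0.18 to 0.39, adjusted p = 0.741). The Cnih2 to Cnih3 ratio per kb was 9.02 to 9.84 in control libraries and 5.73 to 10.2 in SAP97-cKO libraries. Cnih2 shares 14 bp of exon with Yif1a on the opposite strand.

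Shisa9, which modulates short-term plasticity at dentate granule synapses, had 2217, 2120, 1920 and 1910 normalized counts in control libraries and 2246, 2685, 2437 and 2101 in SAP97-cKO libraries. SAP97-cKO libraries 1, 2 and 3 lay above every control library, and SAP97-cKO 4 lay within the control range. The log2 fold change of Shisa9 was 0.21 (SE 0.088, 95% interval 0.02 to 0.41, adjusted p = 0.400). It passed the threshold only without control replicate 1 (0.26, adjusted p = 0.241), where 4.34% of all genes tested were called higher. Gsg1l, a negative modulator of AMPA receptor currents, had 953.5, 1343, 901.3 and 1371 normalized counts in control libraries and 1150, 2608, 1021 and 868.9 in SAP97-cKO libraries. The value in SAP97-cKO 2 was 3.00 times that in SAP97-cKO 4, and SAP97-cKO 1 and 3 lay within the control range, with SAP97-cKO 4 just below it. Gsg1l had a log2 fold change of 0.31 (SE 0.315, 95% interval -0.39 to 1.01, adjusted p = 0.693), and it turned to -0.17 (adjusted p = 0.682) without SAP97-cKO replicate 2.

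**Figure D3:**
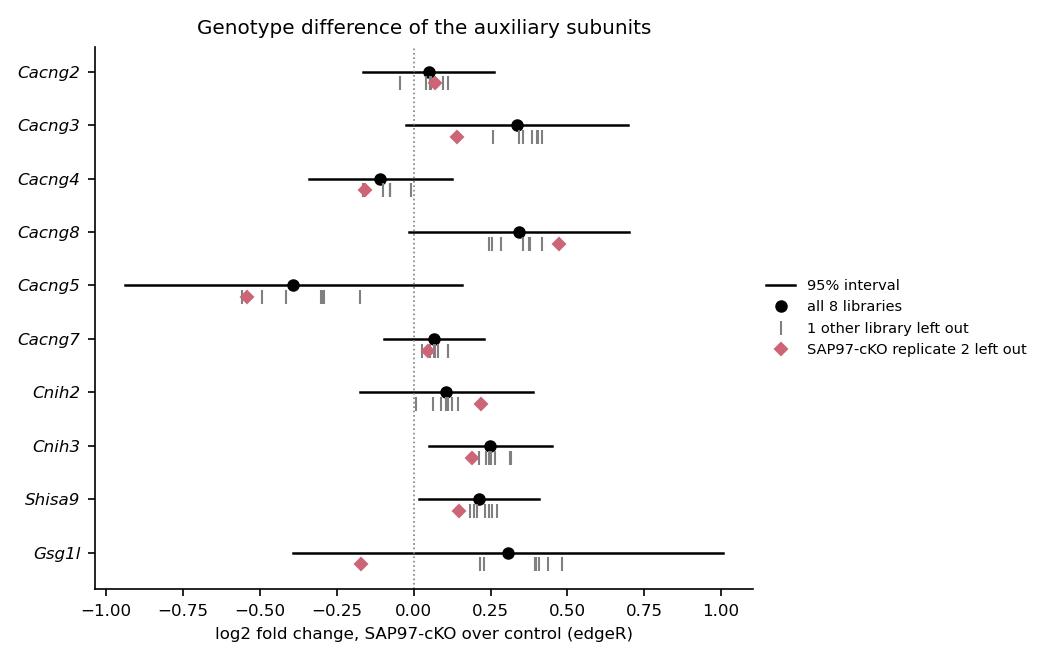
Log2 fold change, SAP97-cKO over control, of each auxiliary subunit gene (horizontal axis), with circles for the fit to all 8 libraries and lines for its 95% interval. Grey ticks leave out 1 library each and diamonds leave out SAP97-cKO replicate 2. The intervals of Cnih3 (0.05 to 0.45) and Shisa9 (0.02 to 0.41) lie above 0, and the diamond of Gsg1l (-0.17) lies on the other side of 0 from its circle (0.31).

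In 3 libraries, the highest or lowest values of some auxiliary subunit genes came with shifted marker lists, given here as mean log2 CPM. These lists were of neighboring tissue or of cell types. Some of the gene values lay close to the next library. Cacng2 had 3052 normalized counts in control 3 and 3027 in control 2, and Shisa9 had 1910 in control 4 and 1920 in control 3. In SAP97-cKO 2, the library with the highest Cacng3, Gsg1l, Cnih3 and Shisa9 and the lowest Cnih2, the dentate granule list was at 5.23, against 5.75 to 6.36 in the other 7 libraries. Prox1, the granule cell fate regulator, had 2435 normalized counts there and 3397 to 6466 elsewhere, and none of the 6 dentate genes was at 0 in any library. Dsp, C1ql2 and Lct were also lowest in SAP97-cKO 2. Calb1 (6205 there, 5001 to 7517 elsewhere) and Plk5 (563.4 there, 532.9 in control 4) were not. A list of 10 genes strongly expressed in neocortex, chosen after these values were seen, was at 5.70 in SAP97-cKO 2 and 4.88 to 5.31 elsewhere, with 7 of its 10 genes highest in that library. All 10 were also detected in every other hippocampal library. Among them, Mef2c had 12569 normalized counts, against 4263 to 7423 elsewhere. The striatal list was at 3.5 there and 1.87 to 2.75 elsewhere. With the neocortical score as a covariate, the log2 fold change of Gsg1l was 0.07 (SE 0.090, adjusted p = 0.756), against 0.31 without it, and that of Cacng3 was 0.26 (SE 0.070, adjusted p = 0.313).

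In control 3, the library with the highest Cacng2, Cacng4 and Cacng5, the thalamic list was at 4.07, against 2.90 to 3.53 in the other 7 libraries. Tcf7l2, a thalamic transcription factor, had 566.2 normalized counts there and 134.1 to 267.1 elsewhere, and 4 of the 6 thalamic genes were highest in that library. With the thalamic score as a covariate, the log2 fold change of Cacng5 was -0.02 (SE 0.173, adjusted p = 0.970), against -0.39 without it, and that of Cacng4 was 0.006 (adjusted p = 0.988). In control 4, the library with the lowest Cacng2, Cacng8 and Shisa9, the dentate list was also low, at 5.75. It was lower only in SAP97-cKO 2 (5.23). Of the dentate genes, Calb1 (6791) and C1ql2 (2822) were above their control means in control 4 (6452 and 2658). The neuron list was the lowest of the 8 libraries there, at 9.07, although its genes Tubb3 (10935) and Stmn2 (15513) had their highest control value there. The astrocyte (8.86), microglia (5.59) and oligodendrocyte (9.04) lists were the highest there. The level of Gria1, Gria2 and Gria3 was also the lowest of the 8 libraries, while that of Gria4 (3098) was not. Among the other auxiliary subunit genes, Cnih2 (14998), Cnih3 (3342), Cacng7 (1855) and Gsg1l (1371) had their highest control value in control 4. The part of tissue composition in these values was not tested.

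**Figure D4:**
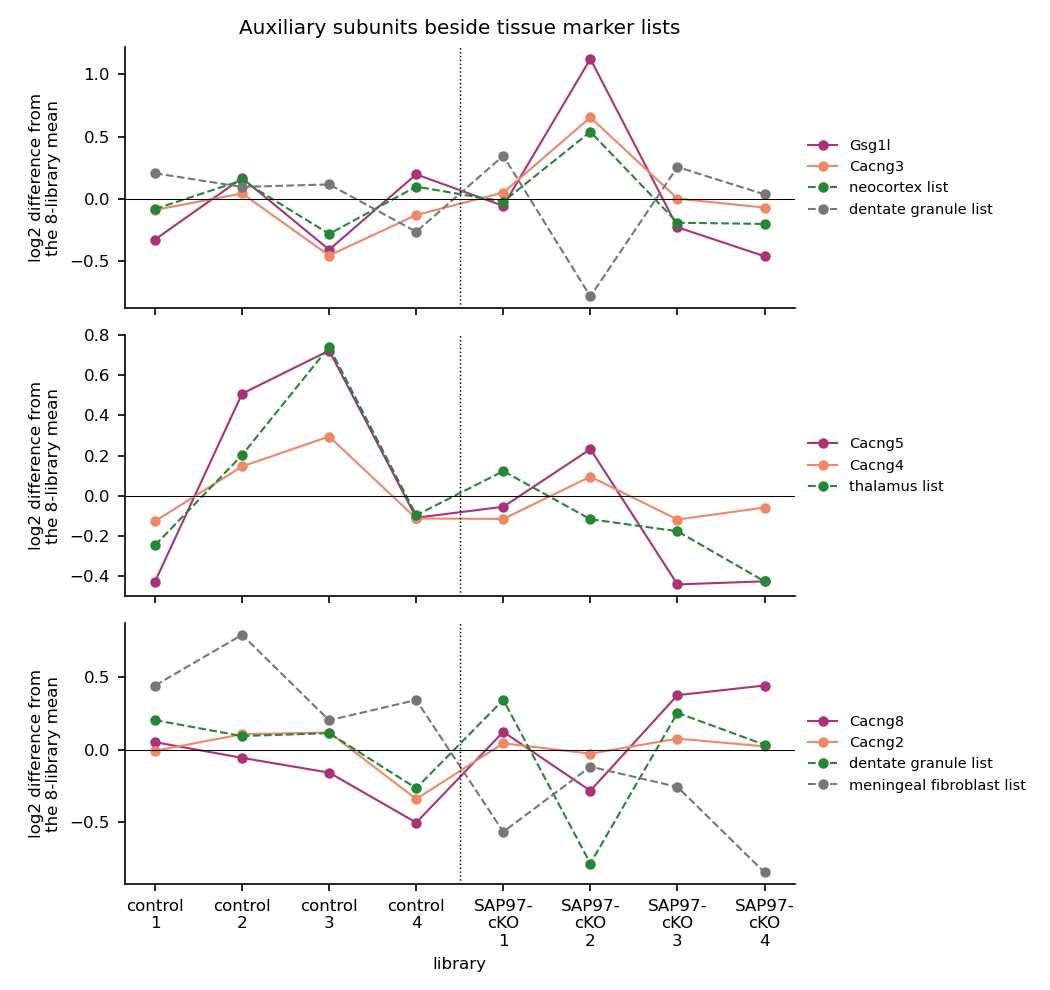
Log2 difference of each library from the mean of the 8 libraries, for auxiliary subunit genes (solid lines, log2 normalized counts) and marker lists (dashed lines, mean log2 CPM). The dotted line separates control libraries from SAP97-cKO libraries. In the upper panel Gsg1l, Cacng3 and the neocortex list peak and the dentate granule list dips in SAP97-cKO 2. In the middle panel Cacng5, Cacng4 and the thalamus list peak in control 3. In the lower panel Cacng8 and Cacng2 are lowest in control 4, and the meningeal fibroblast list is lower in all SAP97-cKO libraries than in any control library.

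Over the 8 libraries, 45 pairs of auxiliary subunit genes were compared, and 0 pairs had an adjusted p under 0.05 by a permutation test of Pearson's r or of Spearman's rho. Cacng4 and Cacng5, the neighbors on chromosome 11, had the highest correlation (r = 0.92, exact permutation p = 0.00241, adjusted p = 0.107; rho = 0.88, exact permutation p = 0.00724, adjusted p = 0.326). It was 0.70 without controls 2 and 3, and it was 0.97 within the control group and 0.74 within the SAP97-cKO group. Cacng3 and Shisa9 came next (r = 0.86, exact permutation p = 0.00476, adjusted p = 0.107; rho = 0.81, exact permutation p = 0.0218, adjusted p = 0.490), with an r of 0.58 without control 3 and SAP97-cKO 2, 0.63 within the control group and 0.86 within the SAP97-cKO group. Cacng3 and Gsg1l had an r of 0.86 (exact permutation p = 0.0193, adjusted p = 0.290) and a rho of 0.52 (exact permutation p = 0.197, adjusted p = 0.799). Without control 3 and SAP97-cKO 2 the r of Cacng3 and Gsg1l was 0.17, so that this relation rested on those libraries. Cacng7 and Cacng8, the neighbors on chromosome 7, had an r of -0.4 (exact permutation p = 0.319, adjusted p = 0.662) and a rho of -0.33 (exact permutation p = 0.428, adjusted p = 0.799). As a description over the same 8 libraries, in which all genes share each library's tissue composition, the genes whose log2 CPM was most like that of Cnih3 were Rian (r = 0.99), Ttc7b (0.97) and A830082K12Rik (0.97). Those most like Shisa9 were Grik1 (0.97), Plxna3 (0.96) and Slc4a3 (0.95).

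Of the 4 pore-forming subunit genes, 0 were called by edgeR, limma-voom or DESeq2, and the median log2 fold change was 0.17. Gria1 had 43076, 36239, 38451 and 31253 normalized counts in control libraries and 43000, 31432, 44672 and 48490 in SAP97-cKO libraries (log2 fold change 0.17, SE 0.140, adjusted p = 0.625). The groups overlapped for Gria1, and SAP97-cKO 2 was as low as control 4. Gria2 had a log2 fold change of 0.17 (SE 0.103, adjusted p = 0.524). Gria3 had one of 0.27 (SE 0.117, adjusted p = 0.414) and was the only pore-forming gene with an unadjusted p under 0.05. Gria4 had one of -0.26 (SE 0.134, adjusted p = 0.464), with its highest level in control 3, like Cacng4 and Cacng5.

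Of 21 further genes of the AMPA receptor complex and its biogenesis, 0 were called by edgeR or limma-voom. DESeq2 called Nptxr and Shisa7 higher in SAP97-cKO, where it called 2.74% of all genes tested higher. At an unadjusted p under 0.05, 3 were higher in SAP97-cKO and 2 lower (4.73% and 7.01% of all genes tested), and the median log2 fold change was 0.07. The higher genes were Nptxr, the neuronal pentraxin receptor that clusters AMPA receptors (0.42, SE 0.149, adjusted p = 0.365), Shisa7, another CKAMP family gene (0.39, SE 0.141, adjusted p = 0.368), and Prrt1, which encodes SynDIG4 (0.25, SE 0.105, adjusted p = 0.408). The lower genes were Olfm3, an olfactomedin of the receptor complex (-0.38, SE 0.173, adjusted p = 0.425), and Sacm1l, a phosphoinositide phosphatase of the secretory pathway (-0.17, SE 0.064, adjusted p = 0.375).

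Among 10 scaffold and kinase genes that act on TARPs, Dlg1 alone was called by edgeR and limma-voom. By edgeR, 5 others had an unadjusted p under 0.05, all of them higher in SAP97-cKO, beside 4.73% of all genes tested. Dlg4, which encodes PSD-95, had a log2 fold change of 0.21 (SE 0.072, adjusted p = 0.358), and its control range (25445 to 28042 normalized counts) lay below its SAP97-cKO range (28629 to 32368). Prkcb, a protein kinase C gene, likewise had groups that did not overlap (0.25, SE 0.101, adjusted p = 0.396). The groups did not overlap for 6.25% of all genes tested. Dlg2, which encodes PSD-93, had a log2 fold change of 0.19 (SE 0.073, adjusted p = 0.376). Camk2a, a kinase that phosphorylates TARP tails, had one of 0.28 (SE 0.105, adjusted p = 0.374). DESeq2 called 4 of the 10 genes higher, Dlg2, Dlg4 and Camk2a among them, where it called 2.74% of all genes tested higher. The median over these 10 genes was 0.20.

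Of the cell type lists, those of meningeal fibroblasts, choroid plexus and oligodendrocytes had the largest differences in mean level between the genotypes. The meningeal fibroblast list had 7 of 12 genes called lower in SAP97-cKO, with list levels of 4.42 to 5.01 in control and 3.37 to 4.10 in SAP97-cKO libraries. Its most abundant genes were Ptgds (36005 ± 9738 normalized counts in control and 15601 ± 4330 in SAP97-cKO) and Igf2 (5979 in control and 3478 in SAP97-cKO). The choroid plexus list, with 0 of 10 genes called by any of the 3 tools and 0 at an unadjusted p under 0.05, ranged from 2.86 to 7.01 in control and from 1.83 to 5.45 in SAP97-cKO, led by Ttr (101626 ± 101682 and 36455 ± 33963) and Enpp2 (54976 ± 48310 and 19513 ± 12491). The oligodendrocyte list had 0 of 8 genes called by edgeR, and 6 were lower at an unadjusted p under 0.05, beside 7.01% of all genes tested. DESeq2 called 3 of the 8 lower, where it called 588 of the 16251 genes tested lower. This list ranged from 8.39 to 9.04 in control and from 8.0 to 8.83 in SAP97-cKO, with Mbp among its most abundant genes (117813 ± 24807 and 85013 ± 27871). The neuron list was at 9.07 to 9.24 in control and 9.13 to 9.34 in SAP97-cKO. With the meningeal score as a covariate, 0 of the 10 auxiliary subunit genes were called. At an unadjusted p under 0.05, 3 were higher in SAP97-cKO, beside 346 of the 16251 genes tested, and 0 were lower, beside 219. In this fit the log2 fold changes of Cacng3, Shisa9 and Gsg1l were 1.01, 0.55 and 1.47 and that of Cnih2 was -0.43 (adjusted p of these 4 genes = 0.993). The meningeal score did not overlap between the genotypes, so that its part and that of the genotype cannot be told apart in these 8 libraries.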

How the data were processed

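Per the labels and the methods, hippocampal RNA came from male mice, 4 control and 4 SAP97-cKO, and the submitters' processing notes name STAR 2.5.3a and mm10 (GRCm38.p5). The authors removed ribosomal and mitochondrial reads and resampled each library to a common depth with their PORT pipeline, so library totals (37388177 to 37426572) do not reflect original depth. The values used are the deposited counts per Ensembl gene. The authors' fold changes, p values and q values of their own comparison were not used. Counts were filtered with filterByExpr (minimum count 10, minimum total 15), scaled by TMM (factors 0.964 to 1.03) and fitted on all 16251 genes in R 4.3.3 with edgeR 4.0.16, using its quasi-likelihood test (biological coefficient of variation 0.152). Calls used the study's threshold of 0.25. The paper's limma-voom (limma 3.58.1) was an alternative, as was DESeq2 1.42.0. The script was checked on simulated counts. Standard errors are the fold change divided by the square root of F. Levels between genes are per kb of merged exons of GENCODE M21, a later annotation than the one counted on. Of 25834 gene IDs, 25696 matched it.

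The genes named are the 10 members, Dlg1, Gria1 to Gria4, pathway list genes with an unadjusted p under 0.05, the 3 genes most like each of the 2 members with the smallest p, and the most abundant genes of the 3 cell type lists that differed most. Prox1 and the other dentate granule genes, Mef2c and Tcf7l2 were named after their values were seen. Some genes that this rule would name are not reported here. The members and lists were chosen with earlier results of these data known. The neocortical list, the dentate, neocortex, thalamus and oligodendrocyte covariates, and leaving out control 3 with SAP97-cKO 2 were chosen after seeing the data. Libraries were distinct from one another, since chi-square per gene between any pair was 9.73 to 72.9. Each library is a separate mouse per the methods.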

Additional observations from a re-analysis of the deposited data

Results flagged for a closer look

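In 30 groups of 4 libraries (10 auxiliary subunit genes, Dlg1 and the 4 pore-forming genes in each genotype), a library's gap to its nearest neighbor was compared with the range of its group by Dixon's test, which by chance marks about 1 group in 20. In 2 groups a library stood apart. Cacng3 in SAP97-cKO replicate 2 was above the other SAP97-cKO libraries, with a gap of 0.866 of the group's range, and Gsg1l in the same library had a gap of 0.839 of the range. Without this library the log2 fold change was 0.14 for Cacng3 and -0.17 for Gsg1l. The dentate granule list was lowest and the neocortical list highest in the same library, and their part in these values was not tested.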

How the results depend on the processing

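The 10 auxiliary subunit genes had 220 values under alternatives, of which 211 kept their direction and their side of the threshold, 6 reversed and 3 newly passed it. The reversed log2 fold changes were -0.0434 for Cacng2 without control replicate 4 (range -0.0434 to 0.111 with 1 library left out), 0.00631 for Cacng4 with the thalamus covariate, -0.0316 and -0.43 for Cnih2 with the choroid plexus and meningeal covariates, and, for Gsg1l, -0.173 without SAP97-cKO replicate 2 (range -0.173 to 0.483) and -0.256 when control 3 was left out too. The number of auxiliary subunit genes called was 1 with DESeq2 (Cnih3), ranged from 0 to 1 when 1 library was left out (Shisa9 when it was control replicate 1, Cnih3 when it was SAP97-cKO replicate 1), and was 0 otherwise. Over all genes, 48 were called, against 1033 with DESeq2, 95 with no scaling, 104 with no filter, 256 with the replicate block, 16, 84 and 99 with the choroid plexus, dentate and neocortex covariates, and 0 at a threshold of 0.05 (1907 at an unadjusted p under 0.05; 0 by limma-voom and 156 by DESeq2 at the stricter threshold). The count was 0 with the meningeal, thalamus and oligodendrocyte covariates (565, 1147 and 637 at an unadjusted p under 0.05), and 0 to 1675 with 1 library left out (1675 without control replicate 1, 711 where SAP97-cKO replicate 1 was dropped, and 0 for control 2, SAP97-cKO 3 or SAP97-cKO 4, with 1404, 1259 and 1167 at an unadjusted p under 0.05). Dlg1 was not called with the meningeal (log2 fold change -0.45, adjusted p = 0.993), thalamus (-0.86, 0.391) and oligodendrocyte (-0.79, 0.853) covariates, and ranged from -1.0 to -0.78 with 1 library left out. The causes were not tested. Same-numbered libraries of the genotypes deviated together with correlations of -0.058, 0.19, 0.097 and 0.26, 2 of the 4 under 0.1, and libraries 2, 3 and 4 of 4 correlated best with their own number, a hint from the data. The labels give no pairing, so the block was not used for the main values. Under the replicate block 0 auxiliary subunit genes were called. The equalized depth limits each value to these counts.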
